A study of Homo sapiens with 4 samples.

Results

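The genes described here are 10 regulators and markers of the switch between epithelial and mesenchymal cell states, taken by symbol from the deposited gene tables: ZEB1, ZEB2, SNAI1, SNAI2, TWIST1, GRHL2, OVOL2, ESRP1, CDH1 and CDH2. All 10 had a row among 62696 gene rows, and all 10 passed the filter for testing (an average of 10 or more normalized counts over the libraries), as did 23344 genes in all. They were measured by total RNA sequencing in OVCAR3, an established cell line of ovarian carcinoma grown in RPMI with fetal bovine serum. Of the 4 libraries, 3 came from cells carrying a short hairpin RNA against the pseudogene transcript ANAPC1P2 (KD, named KD 1, 2 and 3 after their set numbers) and 1 from cells labelled as OVCAR3 without it (WT). The library labelled WT also held transcripts of red cells and leukocytes, and some of neural cells and melanocytes, that were absent or much lower in KD. Their values are given among the marker lists. Whether the WT library holds RNA of OVCAR3 alone was not tested. None of these libraries is labelled as carrying a non-targeting hairpin, so the effect of ANAPC1P2 loss and that of carrying a hairpin cannot be told apart. No label says whether the KD sets were separate cultures or hairpins, so p-values reflect library-to-library spread alone, and this may be technical.

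ANAPC1P2 has 2 rows. Its pseudogene row (ENSG00000231259) had no read in any library, so it checks nothing. The other (ENSG00000285793), a processed transcript under the filter for testing, had 0, 11 and 8 reads in KD 1, 2 and 3 and 14 in WT, or 0, 8.55 and 8.89 against 15.6 normalized counts. Depth was 42871815 to 56216398 counted reads in KD and 27868718 in WT. Yet 36832 genes had reads in WT, against 31014 to 32823 in the KD libraries. Values are normalized read counts as deposited (reads divided by 1 factor per library), with the KD group as mean ± SD (n = 3). The WT value has no replicate, so WT is assumed to vary like KD. In bulk RNA, fewer cells of a type and less RNA per cell cannot be told apart.

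Epithelial cells hold each other through E-cadherin, the product of CDH1, while mesenchymal cells carry N-cadherin, the product of CDH2. ZEB1 and ZEB2, the zinc finger proteins SNAI1 (Snail) and SNAI2 (Slug), and the helix-loop-helix protein TWIST1 favour the mesenchymal state, in large part by repressing CDH1. GRHL2 and OVOL2 are transcription factors that maintain epithelial genes and repress ZEB1, and ESRP1 is an RNA-binding protein that sets epithelial splicing. The microRNAs of the miR-200 family and the ZEB factors repress each other. Many carcinoma cells show markers of both states at once.

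The switch genes did not move as 1 block. Of the 5 mesenchymal factors, ZEB1, ZEB2, SNAI2 and TWIST1 fell in KD and SNAI1 rose. Of the 3 epithelial factors, GRHL2 and ESRP1 rose, GRHL2 only with scalings other than equal library totals, and OVOL2 was not called. CDH2 rose and CDH1 fell, the latter call being lost under several alternatives. In all, 4 of the 10 genes were called higher and 5 lower (limma, Benjamini-Hochberg adjusted p under 0.05 over all genes tested). Calls were frequent in this comparison: 31.4% of all genes tested were called higher and 36.3% lower, so a call as such sets none of the 10 genes apart. With library totals made equal, 20.3% were called higher and 53.6% lower, against 3 and 6 of the 10 genes. Higher calls made up 46.4% of all calls with the deposited scaling, 27.5% with equal totals and 56.9% with median-of-ratios scaling.

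**Figure D1:**
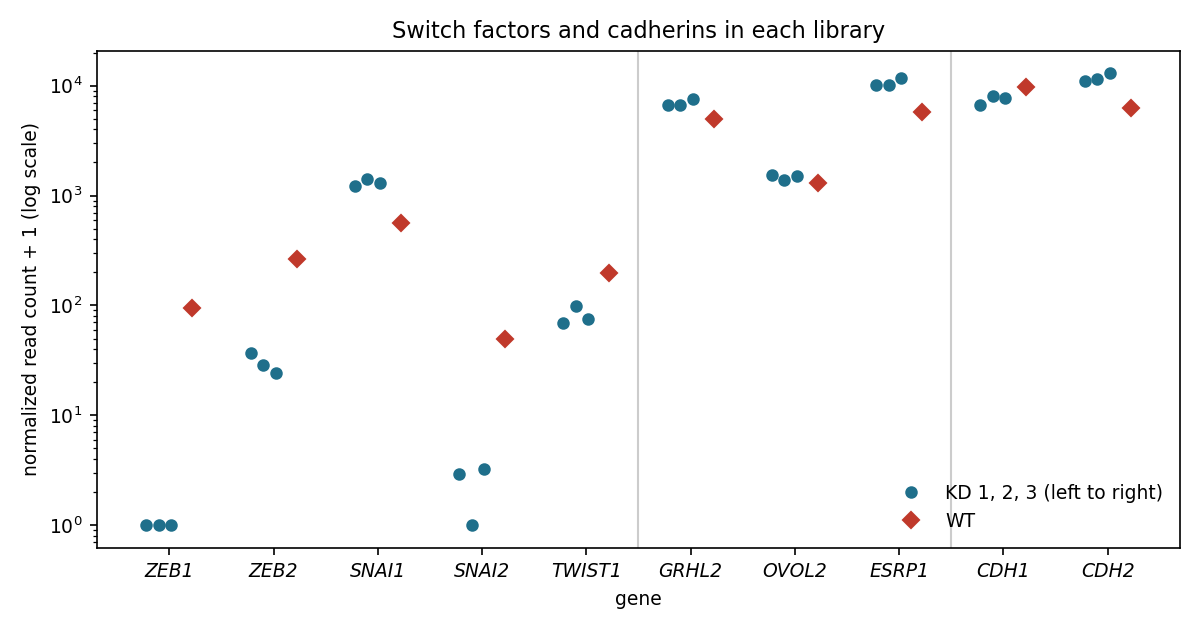
Normalized read count plus 1 (log axis) of each gene in each library, with KD 1, 2 and 3 as circles and WT as a diamond; vertical lines part mesenchymal factors, epithelial factors and cadherins. KD and WT did not overlap for any of the 10 genes, with ZEB1 at 0 in KD and SNAI1, ESRP1 and CDH2 1.88-fold to 2.34-fold above WT. Most genes tested did not overlap either: all 3 KD libraries lay above WT for 40.0% and below it for 52.2%.

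The median log2 difference of all genes tested was -0.28 with the deposited scaling and -0.84 with equal totals. It was 0.28 over the 14464 protein-coding genes, falling from 0.70 in the quartile with the shortest exonic sequence to -0.03 in the quartile with the longest. The part of transcript length in the differences below was not tested. All 3 KD libraries lay above WT for 5 of the 10 genes and below WT for the other 5. Over all genes tested, they lay above WT for 40.0% and below it for 52.2%.

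**Figure D2:**
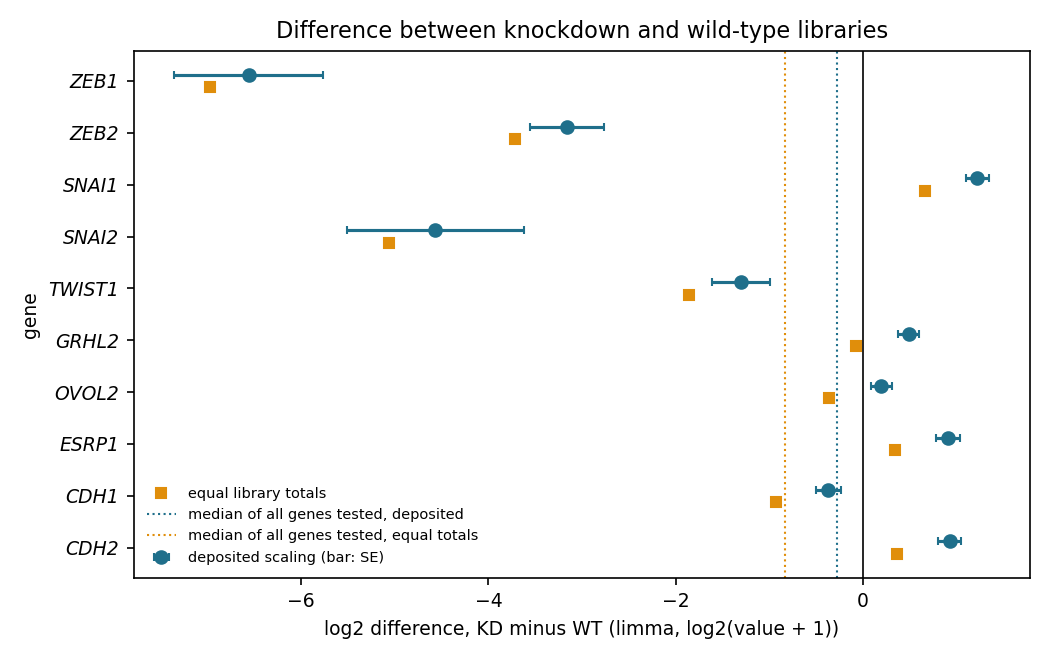
Log2 difference of KD minus WT for each gene on the log2(value + 1) scale, with the deposited scaling (circles, bars are standard errors) and with equal library totals (squares); dotted lines are the medians of all genes tested. ZEB1, ZEB2, SNAI2 and TWIST1 lie left of both medians, and GRHL2 and OVOL2 change side of 0 with equal totals.

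ZEB1 (ENSG00000148516; chromosome 10, 31318495 to 31529814, plus strand, in GENCODE 29 on GRCh38) had no read in KD 1, KD 2 or KD 3 and 93.3 normalized counts in WT, from 84 reads. At the WT rate, 302 reads would have been counted over the KD libraries. Against a floor of 3 reads over the group (0.926 normalized counts), the WT value made ZEB1 at least 100.8-fold lower in KD, and limma gave an adjusted p of 6.23e-04. With the counting error of the WT reads included, the exact lower limit was 80.2-fold. ZEB1 passed the filter for testing only through its WT value, so it could only be called lower. As its KD values had no spread, the test drew its spread from other genes. ZEB2 (ENSG00000169554; chromosome 2, 144364364 to 144524583, minus strand), the paralog with the same domain plan, stood at 36.02, 27.97 and 23.3 in KD and at 264 in WT. Every KD library was thus far below WT, yet ZEB2 was still detected in each, with 95 reads in all. The log2 difference was -3.16 ± 0.40 (SE, adjusted p = 7.10e-04).

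ZEB1-AS1, a noncoding transcript read from the opposite strand (chromosome 10, 31206278 to 31320447) across the start of ZEB1, was nearly level: 38.9, 38.9 and 37.8 in KD and 44.4 in WT. It was not called (log2 difference -0.20, adjusted p = 0.649). The library kit marks the strand, but no source used here gives the strand setting of the counting, so sense and antisense reads may not be fully parted. ZEB2-AS1 had no read in any library.

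The miR-200 microRNAs are shown because they pair with the ZEB messages, and miR-205 because its host transcript was measured. Mature sequences are from RefSeq (GRCh38.p14), 5′ to 3′, with the seed (bases 2 to 8) in capitals.
miR-200b-3p: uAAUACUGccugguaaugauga
miR-200c-3p: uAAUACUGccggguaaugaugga
miR-429: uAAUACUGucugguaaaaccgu
miR-200a-3p: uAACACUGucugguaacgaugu
miR-141-3p: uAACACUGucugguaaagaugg
miR-205-5p: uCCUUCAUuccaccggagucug
They fall into 3 seed groups: miR-200b, miR-200c and miR-429 share AAUACUG, miR-200a and miR-141 share AACACUG, and miR-205 has CCUUCAU. In the longest annotated 3′ untranslated region of ZEB1 (2549 bases), the complement CAGTATT was found 6 times and CAGTGTT 3 times. In that of ZEB2 (5370 bases), they were found 5 and 4 times. Of 18788 protein-coding genes, 0.0319% had at least 9 such matches. Among regions of 80% to 125% of that length the share was 0.0387% of 2584 for ZEB1 and 0.168% of 1188 for ZEB2. SNAI1, TWIST1, OVOL2, CDH1 and CDH2 had none of these letters, SNAI2 and GRHL2 had 1 match each and ESRP1 had 2. Examples are given with the seed match in capitals, on the strand of the message.
ZEB1 chr10:31527619-31527641 (plus strand): ttgttttatcttatCAGTATTat
ZEB1 chr10:31528493-31528515 (plus strand): tgatttttacctatCAGTATTat
ZEB1 chr10:31528783-31528805 (plus strand): gagatttgatttaaCAGTGTTat
ZEB2 chr2:144388988-144389010 (minus strand): gcactacaatgcatCAGTATTat
ZEB2 chr2:144387618-144387640 (minus strand): agacagctattattCAGTGTTat
The match to miR-205, ATGAAGG, was found 1 time in ZEB1 and in none of the other 9 genes, against 11.9% of all genes with at least 1. A match is a description of letters, and mature microRNAs were not measured by these libraries.

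Host transcripts of these microRNAs were measured at low levels. MIR200CHG, the host of miR-200c and miR-141, had 54.97, 36.5 and 42.2 normalized counts in KD and 44.4 in WT (log2 difference -0.02, adjusted p = 0.975). The KD libraries lay on both sides of WT. MIR205HG, the host of miR-205, fell, from 458 in WT to 128, 159 and 186 in KD (log2 difference -1.55, adjusted p = 2.19e-03). The short rows of the hairpins held few reads. MIR200B had 5.69, 10.1 and 0 in KD and 31.1 in WT and was not called (adjusted p = 0.0934). Those of MIR200A, MIR429, MIR141, MIR200C and MIR205 were under the filter, with 4, 12, 5, 13 and 0 reads over the KD libraries and 11, 12, 1, 2 and 2 in WT.

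ZEB and SNAI factors bind the E-box CAGGTG, which reads CACCTG on the other strand. Promoter windows of RefSeq (GRCh38.p14, 250 bases before to 50 after a start site) were matched for 3 of the 10 genes (ZEB1, ZEB2 and CDH2) and for MIR200CHG. In 35116 such windows over all genes, 20.6% held the motif on either strand. ZEB1 held it in 2 of 7 windows and MIR200CHG in its 1 window. The windows of ZEB2 and CDH2 did not hold these letters. The ZEB1 window below, from the stretch that ZEB1 shares with ZEB1-AS1, had 3 matches; 0.635% of all windows had at least 3. It is shown with the MIR200CHG window, in the direction of transcription and with E-boxes in capitals, since these genes are known to restrain each other.
ZEB1 chr10:31318966-31319265 (plus strand): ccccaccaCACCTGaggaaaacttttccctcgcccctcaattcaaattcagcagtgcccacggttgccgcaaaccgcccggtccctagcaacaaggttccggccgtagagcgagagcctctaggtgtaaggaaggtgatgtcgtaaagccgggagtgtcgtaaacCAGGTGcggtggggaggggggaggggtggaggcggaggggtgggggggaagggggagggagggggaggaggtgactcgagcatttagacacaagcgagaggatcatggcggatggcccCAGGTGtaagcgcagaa
MIR200CHG chr12:6962995-6963294 (plus strand): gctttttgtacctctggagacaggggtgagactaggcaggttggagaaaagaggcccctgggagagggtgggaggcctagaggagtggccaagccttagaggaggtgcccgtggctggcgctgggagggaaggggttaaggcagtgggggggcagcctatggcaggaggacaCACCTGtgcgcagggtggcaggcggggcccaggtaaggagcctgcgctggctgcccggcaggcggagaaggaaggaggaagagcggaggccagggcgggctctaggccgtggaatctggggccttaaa
A match is not shown to be a bound site, and no binding was measured.

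SNAI1 (ENSG00000124216; chromosome 20, 49982999 to 49988886, plus strand) went against the other mesenchymal factors. It stood at 1226, 1424 and 1306 normalized counts in KD and at 564 in WT. All KD libraries were well above the WT value, and the KD standard deviation was 7.55% of their mean. The log2 difference was 1.22 ± 0.12 (SE, adjusted p = 2.91e-04), and it was 0.66 with equal totals (adjusted p = 7.41e-03). Its paralog SNAI2 (ENSG00000019549; chromosome 8, 48917604 to 48921740, minus strand) had 2, 0 and 2 reads in KD and 44 in WT. In normalized counts this was 1.90, 0 and 2.22 against 48.9. The rate was 39.6-fold lower in KD with a 95% exact counting interval of 14.4 to 152 (log2 difference -4.57 ± 0.94, adjusted p = 5.85e-03). SNAI2 also passed the filter for testing only through its WT value, so it could only be called lower. Intervals and floors here cover counting error only. Within a library, therefore, SNAI1 was by far the more abundant of this pair, and the gap was wider in KD. In WT the ratio of SNAI1 to SNAI2 reads per kilobase of exonic sequence was 23.2 (17.1 to 32.4), and in KD 1 and KD 3 it was 1302 (360 to 10760) and 1182 (326 to 9771).

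TWIST1 (ENSG00000122691; chromosome 7, 19020991 to 19117672, minus strand) was lower but clearly present, at 68.2, 98.7 and 74.5 in KD against 198 in WT. KD 2 was the highest of the 3 KD libraries and still under the WT value. The log2 difference was -1.30 ± 0.31 (SE, adjusted p = 0.0101). Read for read, SNAI1 exceeded TWIST1 by 16.6 ± 1.93 in KD and by 2.85 (2.40 to 3.40) in WT, a ratio that no scaling of the libraries can alter. SNAI2 and TWIST1 lost their calls when no filter on low values was used (adjusted p = 0.0574 and 0.0606).

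GRHL2 (ENSG00000083307; chromosome 8, 101492432 to 101669726, plus strand) stood at 6701, 6734 and 7581 in KD and at 4985 in WT. All KD libraries were above WT, by a log2 difference of 0.49 ± 0.11 (SE, adjusted p = 9.10e-03). With equal library totals it was -0.07 (adjusted p = 0.414), and with no filter on low values it was not called (adjusted p = 0.0596). OVOL2 (ENSG00000125850; chromosome 20, 17956979 to 18059188, minus strand) was at 1543, 1397 and 1517 in KD and at 1296 in WT. This difference of 0.20 ± 0.11 was not called (adjusted p = 0.147). Its direction turned in 1 of 13 alternatives, to -0.37 with equal totals (limma, adjusted p = 0.0101). In 4 others OVOL2 was called higher. Its log2 difference was 0.47 with median-of-ratios scaling (limma, adjusted p = 9.71e-03) and 0.30 with TMM in limma. With TMM in edgeR it was 0.30, and in the DESeq2 test 0.38. ESRP1 (ENSG00000104413; chromosome 8, 94641074 to 94707466, plus strand) rose under every scaling tried. It stood at 10240, 10156 and 11800 in KD and at 5712 in WT. On the log2 scale KD was higher by 0.91 ± 0.12 (SE, adjusted p = 1.04e-03), and by 0.34 with equal totals (adjusted p = 0.0130).

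The 3 epithelial factors therefore differed among themselves, and ratios within a library show this without any scaling. Per kilobase of exonic sequence, ESRP1 stood at 1.90 ± 0.03 times GRHL2 in KD and at 1.42 (95% counting interval 1.37 to 1.48) in WT. OVOL2 stood at 0.59 ± 0.04 times GRHL2 in KD and at 0.72 (0.68 to 0.77) in WT. The KD 1 interval of the OVOL2 ratio ended at 0.677, just under the lower bound of 0.679 in WT.

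CDH1 (ENSG00000039068; chromosome 16, 68737225 to 68835548, plus strand) was at 6710, 8117 and 7685 in KD and at 9666 in WT. Each KD library was lower, with an adjusted p just under the threshold (log2 difference -0.37 ± 0.13 SE, adjusted p = 0.0429). The call was lost without KD 1 (adjusted p = 0.113), without KD 3 (0.0707) and with no filter on low values (0.162). It was also lost in limma with TMM (0.0953) or median-of-ratios scaling (0.527) and in the DESeq2 test (0.166). With TMM in edgeR the call was kept, and the direction stayed the same throughout. CDH2 (ENSG00000170558; chromosome 18, 27950966 to 28177446, minus strand) was at 10986, 11604 and 12938 in KD and at 6233 in WT, clear of each other. The log2 difference was 0.92 ± 0.12 (SE, adjusted p = 9.76e-04), or 0.36 with equal totals (adjusted p = 0.0165).

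The balance of the cadherins turned over between the groups. Per kilobase of exonic sequence, CDH2 stood at 2.04 (1.98 to 2.10), 1.78 (1.74 to 1.83) and 2.10 (2.04 to 2.16) times CDH1 in KD 1, 2 and 3, and at 0.80 (0.78 to 0.83) times CDH1 in WT. N-cadherin messages thus outnumbered E-cadherin messages in every KD library and were fewer in WT. The KD mean of 1.98 ± 0.17 was 2.46 times the WT ratio. An exact two-sided permutation test over 3 and 1 libraries gave p = 0.25, the smallest this design allows.

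**Figure D3:**
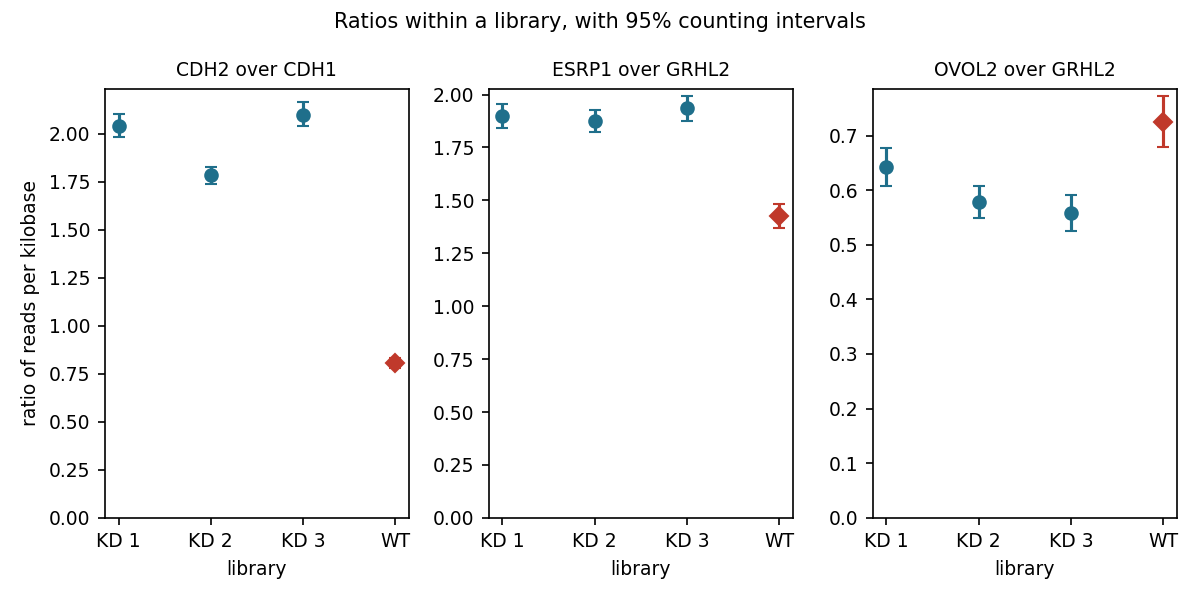
Ratio of reads per kilobase of exonic sequence between 2 genes within each library (axes start at 0), with 95% exact counting intervals as bars; circles are KD and diamonds WT. CDH2 over CDH1 is 1.78 to 2.10 in KD and 0.80 in WT, ESRP1 over GRHL2 is higher in KD, and OVOL2 over GRHL2 is lower.

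Levels of different genes were set in order as normalized counts per kilobase of exonic sequence. In KD, CDH2 (2393 ± 202) and ESRP1 (2201 ± 190) came first, with CDH2 the higher in each KD library. CDH1 (1215 ± 117) and GRHL2 (1156 ± 82.3) followed, in an order that changed between KD libraries. Then came SNAI1 (782 ± 59.1) above OVOL2 (683 ± 35.8). TWIST1 (39.6 ± 7.91), ZEB2 (1.16 ± 0.26) and SNAI2 (0.40 ± 0.35) lay far below, and ZEB1 was last with no read. In WT the order began with CDH1 (1565), CDH2 (1259), ESRP1 (1172), GRHL2 (823), OVOL2 (596) and SNAI1 (335). TWIST1 stood at 97.2 per kilobase in WT, and SNAI2 (14.4), ZEB1 (10.8) and ZEB2 (10.5) closed the list. The ZEB factors were thus rare next to the epithelial factors in both groups. Exonic length counts every annotated exon, 25058 bases for ZEB2, and lowers the level of genes with many exons that are seldom used.

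Other factors of the mesenchymal programme were called in both directions. Of all genes tested 31.4% were called higher and 36.3% lower, or 20.3% and 53.6% with equal totals. Of 14 such genes 10 were tested, and 5 were called higher and 5 lower (median log2 difference 0.16). With equal totals 4 were higher and 5 lower (median -0.41). The Wnt-pathway factor LEF1 rose 2.94-fold, the forkhead gene FOXC1 2.58-fold and the chromatin protein gene HMGA2 1.77-fold. PRRX1, a homeobox gene of mesenchyme, fell to 1.67 ± 1.57 normalized counts from 119, TCF4 to 30.9 ± 17.9 from 297, SNAI3 to 24.7 ± 0.21 from 88.9 and KLF8 to 429 ± 43.1 from 1029. Of these, PRRX1 passed the filter for testing only through WT, so it could only be called lower. FOXC2 and TWIST2 had 20 and 12 reads in WT and none in KD, and GSC and TBXT had none in any library. Of 16 other epithelial factors 13 were tested, with 5 higher, 2 lower and 6 not called (median 0.19). With equal totals 2 were higher and 7 lower (median -0.37). The pioneer factors FOXA1 and FOXA2 rose 5.86-fold and 2.93-fold, and TP63 2.02-fold, although TP63 was not called with equal totals (adjusted p = 0.218). ESRP2, the paralog of ESRP1, fell from 3813 to 2513 ± 137, and OVOL3 from 41.1 to 13.3 ± 1.64. Thus ESRP1 and ESRP2 were called in opposite directions, also with equal totals (log2 differences 0.34 and -1.17).

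Among 20 other cadherins 10 were tested, with 2 higher, 3 lower and 5 not called (median -0.68). With equal totals 1 was higher and 7 were lower (median -1.24). The shares of all genes tested called lower were 36.3% and, with equal totals, 53.6%. CDH18 rose 1.83-fold. CDH6, the most abundant cadherin by count, rose to 69349 ± 8782 from 47851 with the deposited scaling, but its log2 difference was -0.04 with equal totals. CDH19, a cadherin of neural crest derivatives, was without reads in KD and had 109 normalized counts in WT (at least 117.6-fold lower against the floor, with an exact lower limit of 93.9-fold when WT counting error is included). CDH13 stood at 0.74 ± 1.28 against 161 and CDH20 at 7.56 ± 3.67 against 58.9. CDH19, CDH13 and CDH20, the 3 called lower, passed the filter for testing only through WT, so they could only be called lower. The catenins, which tie cadherins to actin, were split. Of 7 tested, CTNNB1, CTNNA1 and JUP rose 2.18-fold, 1.71-fold and 1.48-fold, although with equal totals JUP and CTNNA1 were not called (log2 differences 0.00 and 0.21). CTNND1, which holds cadherins at the membrane, fell from 1365 to 792 ± 55.9, and CTNNA3, CTNNA2 and ARVCF fell as well (median of the 7 -0.78). CTNNA3, at 8.19 ± 4.23 against 38.9, passed the filter only through WT, so it too could only be called lower.

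**Figure D4:**
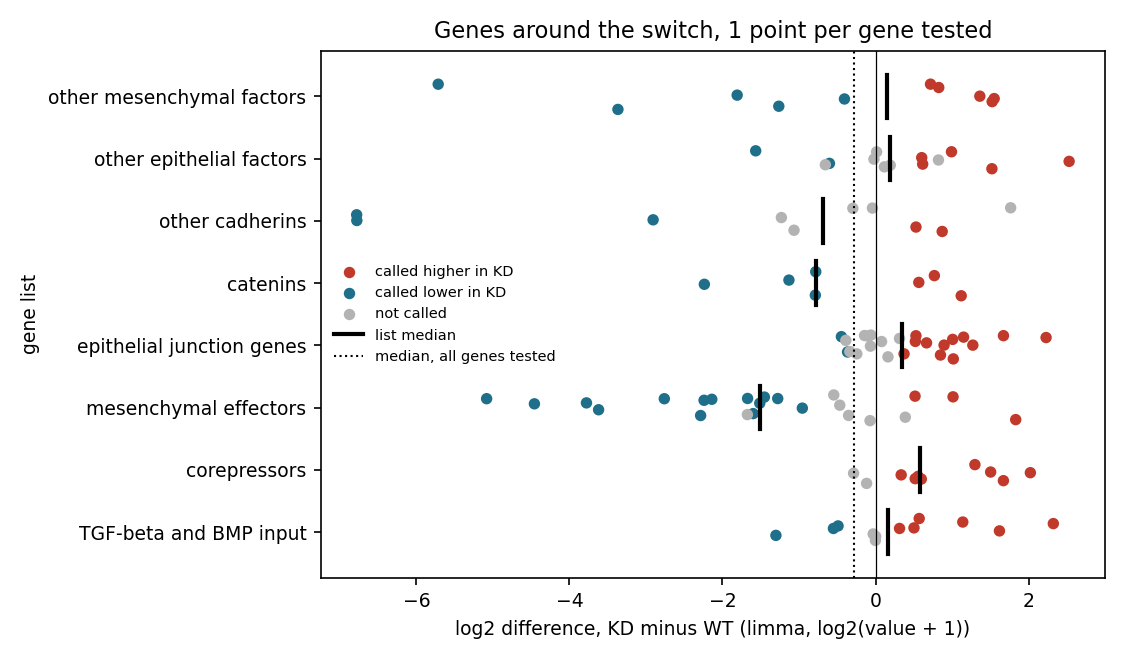
Log2 difference of KD minus WT for each tested gene of 8 lists around the switch, coloured by call, with the list median as a black bar and the median of all genes tested as a dotted line. Mesenchymal effectors lie mostly to the left (median -1.51) and corepressors to the right (median 0.58), while both lists of factors spread to both sides. The median of protein-coding genes tested, not drawn, was 0.28.

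Genes that carry out both states were read next. Of 24 epithelial junction and surface genes, 12 were higher, 2 lower and 10 not called (median 0.34). With equal totals the balance turned, with 8 higher and 11 lower (median -0.22). Of all genes tested 31.4% were called higher and 36.3% lower, or 20.3% and 53.6% with equal totals. The median of protein-coding genes tested, which all 24 are, was 0.28 with the deposited scaling. MAL2, a protein of apical transport, rose 4.69-fold, CDS1 3.19-fold, the adhesion gene EPCAM 2.42-fold and the tight junction gene MARVELD2 2.23-fold. The polarity gene PATJ fell from 9408 to 6905 ± 169 and LSR from 7316 to 5687 ± 403. Of 24 mesenchymal effectors 23 were tested, with 14 lower, 3 higher and 6 not called (median -1.51). With equal totals 2 were higher and 15 lower (median -2.07). The shares of all genes tested called lower were 36.3% and, with equal totals, 53.6%. Markers of leukocytes and red cells, and some of neural cells and melanocytes, were lower in KD in the same libraries. The part of such cells in these values was not tested. The collagen gene COL5A1 fell to 2.52 ± 2.28 from 94.4, MMP2 to 77.4 ± 37.1 from 1608, TGFBI to 33.8 ± 11.9 from 458 and SPARC to 193 ± 28.9 from 2357. COL5A1 and any other tested effector with a KD mean under 10 normalized counts passed the filter only through WT. Such genes could only be called lower. The intermediate filament gene VIM fell 3.19-fold. S100A4 and LOX rose 3.60-fold and 2.02-fold, and CALD1 1.43-fold, although the log2 difference of CALD1 was -0.05 with equal totals. COL3A1 had 14 reads in WT and none in KD.

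Genes listed as corepressors of the switch were called higher in 8 of 10 cases and lower in 0 (median 0.58). Of all genes tested 31.4% were called higher, and the median of protein-coding genes was 0.28. With equal totals the counts were 4 higher and 3 lower (median 0.01), RCOR1, SIN3A and EZH2 being the lower ones. BMI1 rose 4.08-fold, HDAC2 3.19-fold, SUZ12 2.84-fold and HDAC1 2.46-fold, and these 4 were called higher under both scalings. Of 12 genes of TGF-beta and BMP signalling, which can drive the switch, 6 were higher, 3 lower and 3 not called (median 0.16). With equal totals 3 were higher and 6 lower (median -0.40), beside 20.3% and 53.6% of all genes tested. The ligand gene BMP4 rose 5.01-fold and the receptor genes TGFBR2 and TGFBR1 3.08-fold and 2.21-fold. SMAD2 stood at 9081 ± 288 against 6114 and was called higher with the deposited scaling, but not with equal totals (log2 difference 0.0072, adjusted p = 0.927). The ligand genes TGFB2, TGFB3 and BMP7 fell, to 2790 ± 166 from 6873, to 311 ± 27.2 from 454 and to 6080 ± 690 from 8502.

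The libraries were checked for their labelled cell type and for others. PAX8, a transcription factor of the Müllerian tract, and keratin 8 (KRT8) were abundant in all 4, at 19884 ± 1521 and 21908 ± 917 in KD and 62685 and 9468 in WT. MUC16, which encodes a membrane mucin, took far more of the WT library, with 458890 normalized counts against 28927 ± 5655 in KD. Of the 10 listed markers of ovarian carcinoma epithelium, 6 were called higher, 3 lower and 1 not. Those higher were KRT7, KRT8, KRT18, KRT19, EPCAM and SOX17, and those lower were MUC16, PAX8 and MSLN. Of all genes tested 31.4% were called higher and 36.3% lower. Markers of some other cell types were lower in KD, as were ZEB1, ZEB2, SNAI2 and TWIST1. All 8 tested leukocyte markers were lower in KD, and the 11 listed summed to 110 to 151 normalized counts in KD and 1064 in WT. LYZ, CD68, FCGR3B and AIF1 had no read in KD, while PTPRC, the pan-leukocyte marker, had 31.0 ± 8.33 in KD and 190 in WT. All 5 tested erythroid markers were lower, with sums of 1.55 to 3.79 in KD and 14867 in WT. At such KD values these markers passed the filter for testing only through WT, so they could only be called lower. The same holds for any tested leukocyte marker without a KD read. HBB, HBA1, HBA2, SLC4A1 and AHSP had no read in KD. Of 9 tested neural markers 6 were lower and 1 higher, with sums of 2310 to 3375 in KD and 4651 in WT. NEUROD6, at 2374 in WT, was without reads in KD and so could only be called lower.

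**Figure D5:**
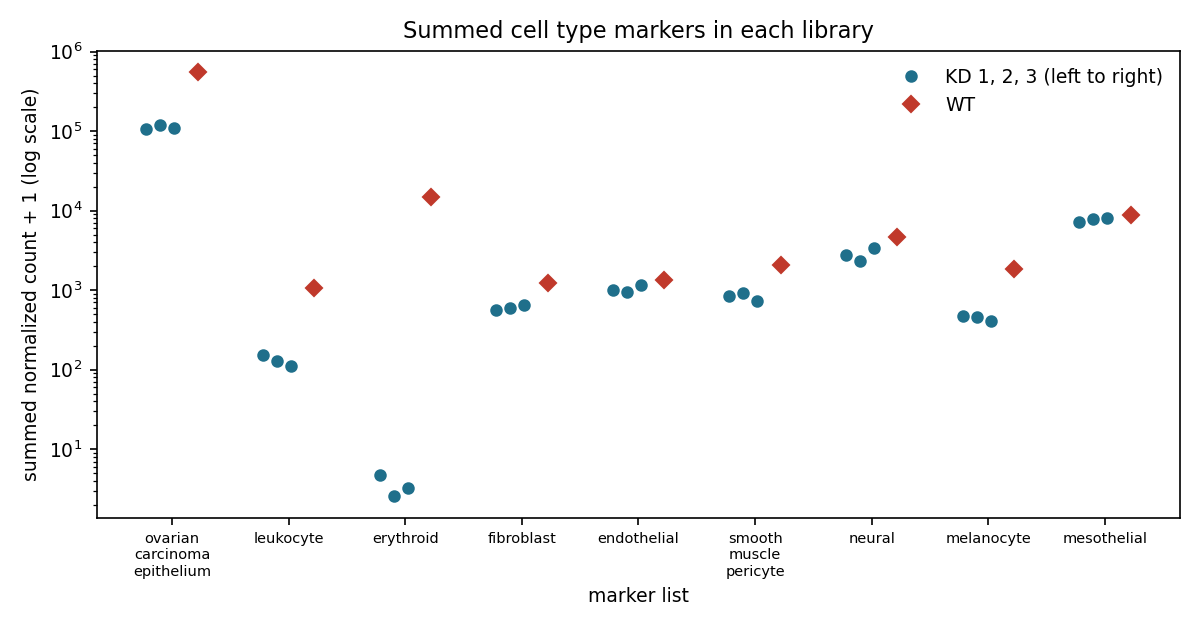
Summed normalized count plus 1 (log axis) of each list of cell type markers in each library, with KD 1, 2 and 3 as circles and WT as a diamond. WT lies above every KD library for each list, with the widest gap for erythroid markers (1.55 to 3.79 in KD, 14867 in WT).

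Of 4 tested melanocyte markers 2 were lower, SOX10 at 4.94 ± 3.96 against 860 and MLANA at 124 ± 36.3 against 671, and the 6 listed summed to 405 to 478 in KD and 1867 in WT. SOX10 passed the filter only through WT, so it could only be called lower. TYR had no read in WT. Fibroblast markers were called lower in 2 of 7 cases and summed to 555 to 654 in KD and 1224 in WT, where DCN had no read. Endothelial markers were lower in 1 of 6 cases (936 to 1156 against 1325). Smooth muscle and pericyte rows were lower in 3 of 6 cases and higher in 1 (726 to 912 against 2095). Mesothelial markers were lower in 1 of 5 and higher in 1 (7164 to 8161 against 8931). Beside these counts, 36.3% of all genes tested were called lower and 31.4% higher. Leukocytes, neural crest cells and fibroblasts are known to express ZEB1, ZEB2, SNAI2 or TWIST1. The part of such cells or their RNA in the WT values of these 4 genes and of the mesenchymal effectors was not tested, and WT is the only library of its kind, so it cannot be left out.

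Profiles most like those of CDH1 and ZEB1 were sought among the other 14463 tested protein-coding genes, by the distance between centred log2(value + 1) profiles over the 4 libraries. Nearest to CDH1 were EP300, a histone acetyltransferase gene (distance 0.021, 7199 to 8536 in KD and 10233 in WT), CASKIN2 (0.032) and WDR7 (0.036). Nearest to ZEB1 were F13A1, LYZ and TLR4 (0.015, 0.029 and 0.071), which encode a coagulation factor subunit, lysozyme and a receptor of innate immunity. Each of these 3 had no read in KD and 94.4, 95.5 or 98.9 normalized counts in WT. With only 4 libraries many genes share such a profile.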

How the data were processed

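Each deposited table gives 1 signal value per gene for 1 library, a normalized read count. Per the submitters' processing notes, the authors used STAR 2.7.11b, featureCounts 2.0.6 and DESeq2 with hg38; no source used here gives the annotation release, the strand setting or the origin of the factors. All values (100%) were whole multiples of 1 step per library to within 0.001 reads, so whole reads were recovered. The factor dividing the reads was 1.0551 in KD 1, 1.2869 in KD 2, 0.8995 in KD 3 and 0.9003 in WT.

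The test was limma-trend (limma 3.58.1, R 4.3.3) on log2(normalized count + 1) over 23344 genes averaging 10 or more normalized counts; p-values were two-sided and Benjamini-Hochberg adjusted, and calls used 0.05. Differences on this scale understate the change of low genes. Genes with a KD mean under 10 normalized counts passed the filter only through WT, so they could only be called lower. The spread comes from KD only. The tests were run on simulated data with known changes in a small share of genes and with WT given the spread of KD. Calls are frequent here and the WT spread is unknown, so that run cannot vouch for the calls above. Alternatives were other pseudocounts, filters and scalings, edgeR 4.0.16 and DESeq2 1.42.0 on recovered reads (edgeR called 7402 genes higher and 9271 lower), and leaving out each KD library.

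Lengths and positions are from GENCODE 29, where 92.9% of gene identifiers were found. Members, gene lists and tests were chosen with earlier results of these data known. Named genes are all members, microRNA hosts and antisense partners, up to 4 called genes per list and direction with the largest differences, list genes without a read in 1 group, nearest profiles, and abundant markers; VIM, FOXC2, TWIST2, GSC, TBXT, COL3A1, CD68, AIF1, AHSP, TYR, DCN, PAX8, KRT7, KRT8, KRT18, KRT19, SOX17, MSLN, MUC16, RCOR1, SIN3A and EZH2 were added after their values were seen. Some genes of the lists are not reported here by name.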

Additional observations from a re-analysis of the deposited data

How the results depend on the processing

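Under 13 alternatives, CDH2, ESRP1, SNAI1 and ZEB2 kept direction and call, with log2 differences nearest to 0 of 0.36, 0.34, 0.66 and -2.88. ZEB1 did so under the 12 in which it was tested (-9.60 to -4.30). With no KD read, its direction could not change under any of them. GRHL2 and OVOL2 changed sign with equal library totals, to -0.074 and -0.367, because that scaling lowers every KD value against WT. TMM and median-of-ratios scaling moved the calls of list genes the other way, with more higher and fewer lower. The median log2 difference of all genes tested was -0.18 with TMM and -0.004 with median-of-ratios scaling, both in limma. With equal totals 4746 genes were called higher, and 25 list genes higher and 59 lower, against 7329, 44 and 34 with the deposited scaling. With the filter raised to 50 normalized counts, 5086 genes were called lower against 8465, and 3 of the 10 switch genes lower against 5, since ZEB1 and SNAI2 were no longer tested. With no filter on low values 2 were called lower, and the cause was not tested. Leaving out 1 KD library moved the log2 difference of CDH1 between -0.43 and -0.29. No paired analysis was possible because the WT library carries no set number. The lone WT library limits every comparison: its own spread is unknown. Few reads limit ZEB1 and SNAI2, with 84 and 44 in the lone WT library and 0 and 4 in KD. Each KD library was deeper than WT.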
